A study of Mus musculus with 36 samples.

Results

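Cadherins are adhesion proteins that join neighbouring cells through calcium-dependent contacts of their extracellular repeats. The genes described here were the protein-coding mouse genes whose symbols are exactly Cdh or Pcdh followed by a number, with an optional x. The clustered protocadherins (Pcdha, Pcdhb and Pcdhg) were left out. The rule took 35 of the 37315 genes in the count table, 23 of them Cdh and 12 Pcdh. It used symbols only and no measured value. Grouped by type, these were 5 type I classical cadherins (Cdh1, 2, 3, 4 and 15), 13 type II cadherins (Cdh5 to Cdh12, Cdh18, 19, 20, 22 and 24) and 5 other cadherins (Cdh13, 16, 17, 23 and 26). The protocadherins were 4 of the delta-1 type (Pcdh1, 7, 9 and 11x), 5 of the delta-2 type (Pcdh8, 10, 17, 18 and 19) and 3 others (Pcdh12, 15 and 20).

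The study profiled polyA RNA of wild-type mice on a BL/6 background in 4 brain regions: CA1 and CA3 of the hippocampus, and LEC and MEC, the lateral and the medial division of the entorhinal cortex, which project to it. All mice were housed singly and handled before the experiment. Tissue was taken 90 minutes after the behaviour from mice left in the home cage, mice exposed to a context, and mice of the fear group, which the protocol describes as given a foot shock. There were 3 libraries for each of the 12 groups of region and condition, 36 in all. The labels give neither age nor sex, and do not tie replicate numbers to mice, so a p-value here rests on the spread among libraries, which may be technical and may include regions of the same mouse.

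In neurons, classical cadherins bind mainly to the same or a closely related cadherin on the partner cell and connect through beta-catenin and alpha-catenin to actin. Type II cadherins are known for patterned expression in groups of connected neurons, and several have been placed at hippocampal synapses. Delta protocadherins form a separate family of brain-rich adhesion proteins whose cytoplasmic tails bind protein phosphatase 1, in the delta-1 type, or the actin-regulating WAVE complex, in several of the delta-2 type.

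Library totals were 21871412 to 68974340 counts. The 35 genes together held 0.091% to 0.201% of the counts of a library. Levels are given as CPM, the gene's count scaled to a common library total, and differences as log2 values from edgeR's quasi-likelihood test after TMM scaling. A call means a p under 0.05 after Benjamini-Hochberg adjustment over all genes tested. Marker genes separated some of the regions. Summed CA3 pyramidal markers were 454 to 568 CPM in CA3 libraries and 43.6 to 281 in CA1. CA1 pyramidal markers did not set CA1 apart from the entorhinal cortex, with 479 to 1435 CPM in CA1, 477 to 811 in MEC and 282 to 605 in LEC, and 88.2 to 383 in CA3. Cortical layer markers summed to 412 to 535 CPM in LEC and 416 to 513 in MEC, against 186 to 306 in CA1 and 157 to 199 in CA3. Dentate granule cell markers differed widely among CA1 libraries, 159 to 748 CPM, and oligodendrocyte markers summed to 3480 to 13150 CPM in CA1 and 5271 to 13260 in CA3 against 1125 to 1767 in LEC and 1656 to 3370 in MEC. In such bulk samples, fewer cells of a type and less RNA per cell cannot be told apart.

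The CA3 fear replicate 2 library stood apart in the epithelial members of the family. It held 35.6 CPM (1117 counts) of Cdh1, E-cadherin of epithelia, 20.4 CPM (641 counts) of Cdh17, the liver-intestine cadherin, and 1.47 CPM (46 counts) of Cdh3, P-cadherin. The highest values in the other 8 CA3 libraries were 0.0814, 0.196 and 0.0719 CPM. Of 8 genes of simple epithelia, a list chosen after this library had been seen, 7 were highest in it of all 36 libraries. Krt8 was at 116.5 CPM, Krt18 at 103.8 and Krt19 at 84.2, against at most 1.06, 1.55 and 0.468 in the other 35 libraries. Epcam, at 0.605 CPM, was the exception, with up to 1.68 CPM in another CA3 library. The kidney cadherin Cdh16 had 0 counts there. Results for Cdh1 and Cdh3 are given with and without this library, and Cdh17 did not pass the filter on low counts.

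**Figure D1:**
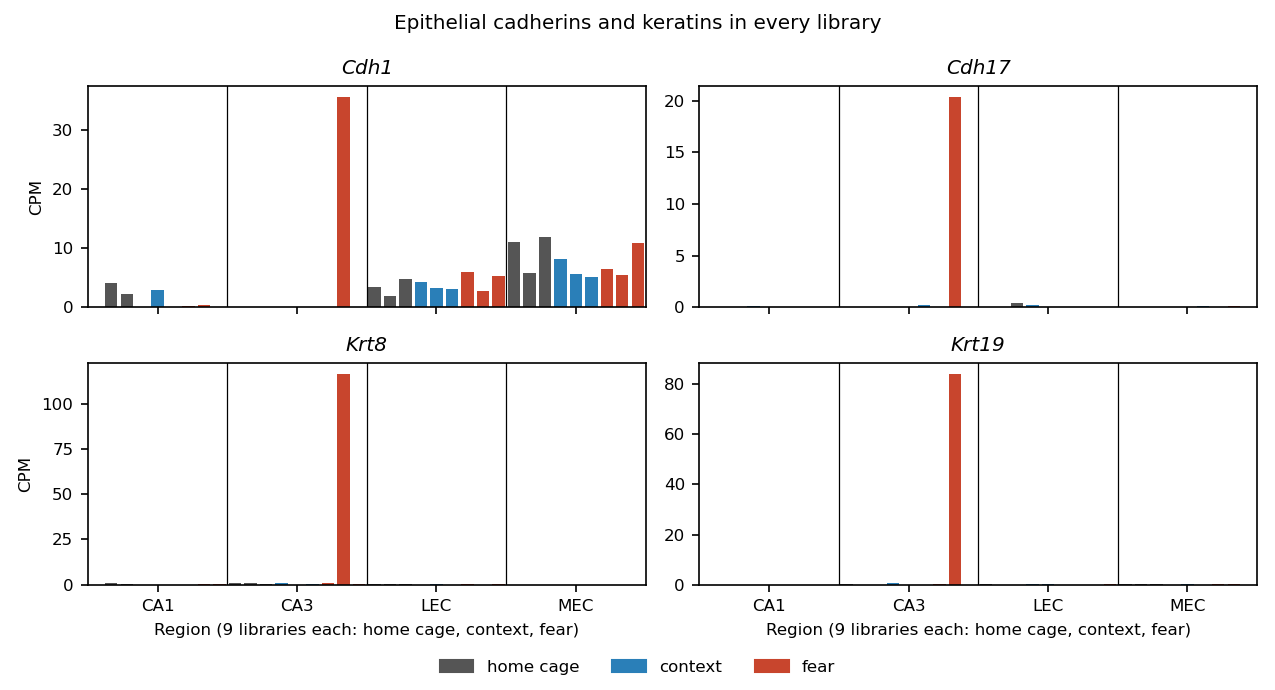
CPM (linear axis from 0) of Cdh1, Cdh17, Krt8 and Krt19, with 1 bar for each of the 36 libraries, grouped by region and coloured by condition. The CA3 fear replicate 2 library stands alone for Cdh17, Krt8 and Krt19, while Cdh1 was also present in every LEC and MEC library.

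Of the 35 genes, 33 passed the filter on low counts in the fit of all 36 libraries, which left out Cdh16 and Cdh17. In each region's own fit 30 passed, and 29 passed in all 5 fits. At a mean of at least 1 CPM in every region were 29 genes, and 4 were under 1 CPM in every region (Cdh3, Cdh16, Cdh26 and Pcdh12). Cdh1 reached that mean in CA3 through CA3 fear replicate 2 alone, with a CA3 median of 0.0314 CPM, and Cdh17 reached it in CA3 through the same library, with a median of 0 CPM. Per kilobase of exon, which allows levels to be set side by side between genes, Pcdh20 and the delta-1 protocadherin Pcdh1 led in the hippocampal fields. Pcdh20 had 32.00 CPM per kb in CA1 and 42.7 in CA3, and Pcdh1 had 31.6 and 38.5. In LEC the order was Pcdh1 (24.2), Cdh2 (21.04) and Pcdh9 (16.4), and in MEC it was Pcdh9 (26.2), Pcdh1 (22.7) and Cdh2 (21.2). The mean was highest in MEC for 14 of the 35 genes, in LEC for 10, in CA3 for 9 and in CA1 for 2.

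Of the members with large regional differences described below, 4 are shown by the 250 bases before their start sites, to let the regional results be read beside the sequence. The sequences are from RefSeq promoter windows of GRCm38.p6, 5′ to 3′ on the gene's strand, with capitals only for motif matches.
Cdh20, chr1:104768270-104768519, plus strand: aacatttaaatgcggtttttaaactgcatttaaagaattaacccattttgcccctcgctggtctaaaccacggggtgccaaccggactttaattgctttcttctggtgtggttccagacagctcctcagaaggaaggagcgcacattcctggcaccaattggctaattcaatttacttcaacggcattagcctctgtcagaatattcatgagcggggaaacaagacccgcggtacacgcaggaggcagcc
Cdh24, chr14:54641365-54641614, minus strand: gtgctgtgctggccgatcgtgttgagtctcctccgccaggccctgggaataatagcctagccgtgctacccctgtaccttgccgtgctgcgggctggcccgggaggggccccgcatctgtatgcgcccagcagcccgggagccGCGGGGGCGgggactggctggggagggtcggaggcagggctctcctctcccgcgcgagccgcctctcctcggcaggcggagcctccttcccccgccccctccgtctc
Pcdh20, chr14:88471397-88471646, minus strand: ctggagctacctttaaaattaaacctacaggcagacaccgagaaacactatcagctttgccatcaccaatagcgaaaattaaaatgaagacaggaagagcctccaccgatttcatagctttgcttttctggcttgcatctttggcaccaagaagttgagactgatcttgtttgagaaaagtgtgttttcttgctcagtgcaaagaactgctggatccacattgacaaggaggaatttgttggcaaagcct
Pcdh8, chr14:79771313-79771562, minus strand: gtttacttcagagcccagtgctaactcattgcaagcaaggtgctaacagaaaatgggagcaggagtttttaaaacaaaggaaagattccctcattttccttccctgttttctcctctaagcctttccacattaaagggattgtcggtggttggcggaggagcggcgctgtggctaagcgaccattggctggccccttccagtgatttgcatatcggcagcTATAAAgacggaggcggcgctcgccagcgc
The capitals mark an EGR motif (GCGNGGGCG) starting 107 bases before the start of Cdh24, and a TATA box (TATAAA) 30 bases before that of Pcdh8.

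Windows were used for 22 of the 35 genes (25 windows, among 32851 in the table). Members on chromosome 18 (Cdh2, Pcdh1 and Pcdh12) were not searched, an exclusion not applied to the windows of all genes. Searched on both strands, the cyclic AMP response element (TGACGTCA) was in 0 of the 25 windows and in 1.55% of all windows, and the AP-1 motif (TGANTCA) in 0 and in 6.75%. The EGR motif was in 3 windows (Cdh7, Cdh24 and Pcdh17) and in 4.7% of all. TATAAA was in 2 (Pcdh8 and Pcdh15) and in 12.4% of all. The sequence CAGCTG, an E-box, was in 2 (Cdh9 and Cdh12) and in 4271 of 32851 promoters in all. These are matches of letters within 250 bases and do not show that a factor binds there. The median GC content was 58.4% in the members' windows and 52.4% in all windows. Pcdh20 lay below both at 42.4% with 3 CpG dinucleotides, and Cdh24 above both at 72.8% with 22.

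The widest regional differences separated the entorhinal cortex from the hippocampal fields. Averaged over conditions, 24 of the 33 genes tested differed between the 2 entorhinal and the 2 hippocampal regions, 17 higher and 7 lower in entorhinal cortex. Among all 17875 genes tested the call was made for 50.9%, with 25.5% higher and 25.4% lower. The median log2 difference was 0.56 over the members and -0.02 over all genes. Of the 24 calls, 18 were kept under each of the alternatives run. All 18 libraries on one side lay beyond all 18 on the other for 8 members, 6 higher and 2 lower, against 3.74% of all genes.

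**Figure D2:**
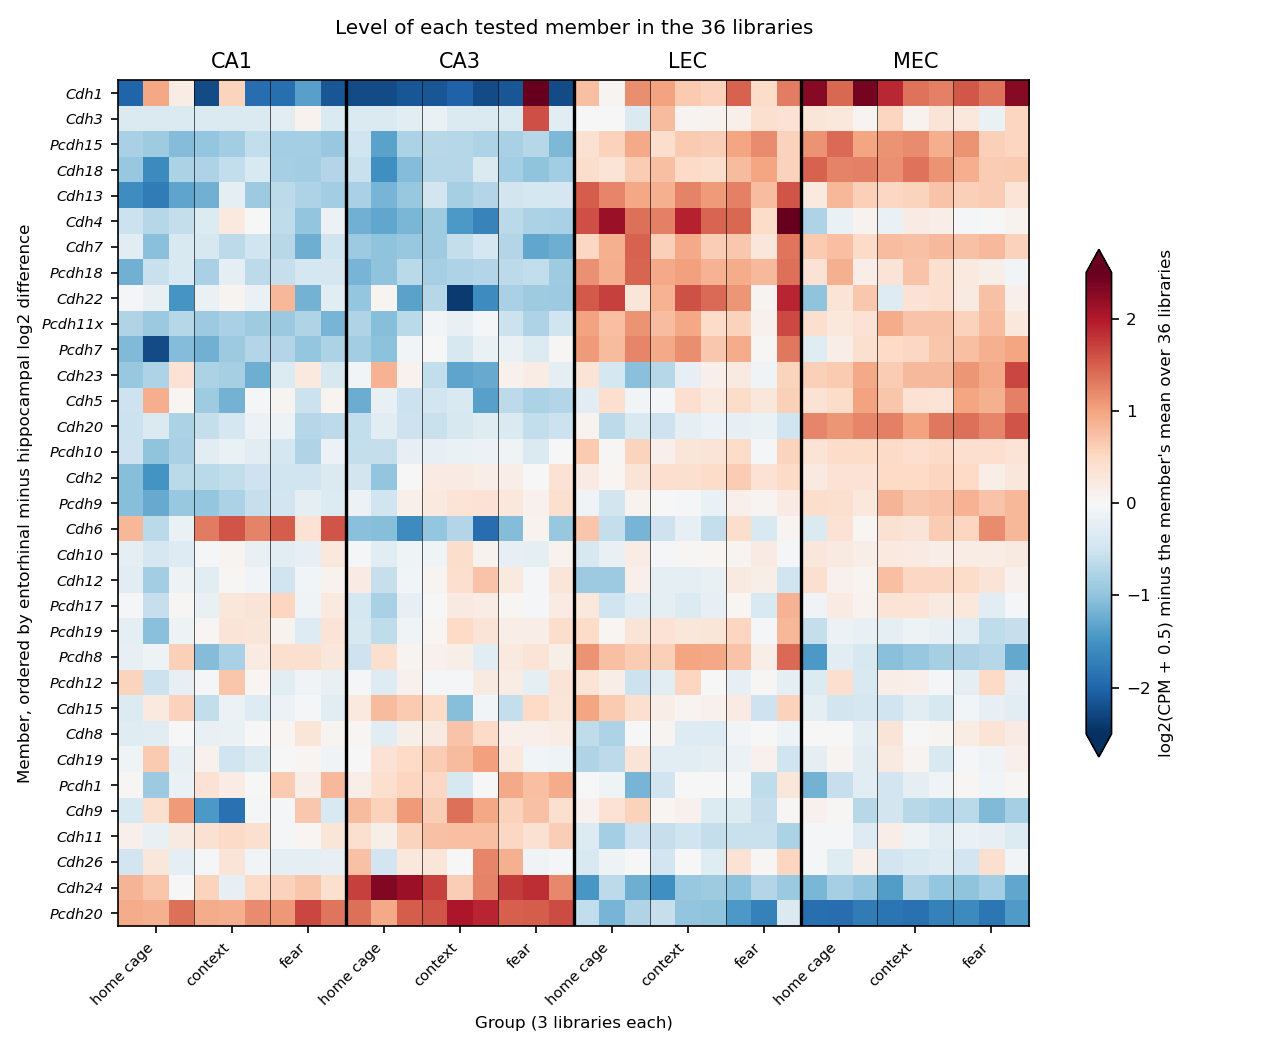
Level of the 33 tested members in each of the 36 libraries, as log2(CPM + 0.5) minus the member's mean (colour), ordered by the entorhinal minus hippocampal difference. Pcdh15, Cdh18 and Cdh13 are high in all LEC and MEC libraries, Pcdh20 in all CA1 and CA3 libraries, Cdh24 in all CA3 and most CA1 libraries, and Cdh20 in MEC alone.

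Of the 5 type I cadherins, 4 were higher in entorhinal cortex and 0 lower. Cdh1 lay at 1.97 to 6.02 CPM in LEC and 5.13 to 11.8 in MEC, against medians of 0.136 CPM in CA1 and 0.0314 in CA3 (log2 difference 3.77, SE 0.70, adjusted p = 4.09e-05). Without CA3 fear replicate 2 the log2 difference was 5.28 (SE 0.54, adjusted p = 3.42e-09). Cdh1 was nonetheless not absent from all CA1 libraries: CA1 home cage 2 and 3 held 4.10 and 2.19 CPM and CA1 context 2 held 2.95. Summed meningeal and mural markers were 235 to 429 CPM in LEC and 258 to 396 in MEC, against 116 to 242 in CA1 and 114 to 143 in CA3. In CA1 home cage 2, home cage 3 and context 2 they were 242, 153 and 123 CPM. The part of these markers in the level of Cdh1 was not tested. Cdh3, with at most 0.606 CPM outside CA3 fear replicate 2, was also higher in entorhinal cortex (3.16, adjusted p = 0.000200; 3.92 without that library).

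Cdh2, N-cadherin, the classical cadherin of most central synapses, had the lowest, median and highest values 147, 169 and 189.5 CPM in MEC, 135, 172 and 202 in LEC, 65.3, 146 and 168 in CA3 and 46.1, 85.2 and 101 in CA1. The ranges of CA3 and the entorhinal regions overlapped, and the entorhinal mean was higher (log2 difference 0.69, SE 0.073, adjusted p = 1.24e-09). Cdh4, R-cadherin, reached 21.5, 43.4 and 91.5 CPM in LEC, against 7.52 to 18.6 in CA1, 4.50 to 9.54 in CA3 and 8.82 to 17.98 in MEC. All 9 LEC libraries were above all libraries of the other 3 regions, and the entorhinal difference was 1.56, SE 0.14, adjusted p = 6.29e-11. Cdh15, M-cadherin of muscle, was at 1.17 ± 0.484 CPM in LEC (SD, n = 9) and gave no call in this contrast (-0.13, adjusted p = 0.645).

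The 13 type II cadherins divided evenly, 5 higher and 5 lower in entorhinal cortex. Cdh18 was at 17.8, 20.9 and 27.9 CPM in LEC and 22.1, 31.6 and 39.6 in MEC, and at 4.28 to 10.6 in CA1 and 4.49 to 10.8 in CA3, so that no entorhinal library overlapped a hippocampal library (log2 difference 1.70, SE 0.084, adjusted p = 1.39e-17). Cdh7 showed the same separation, with 13.6 to 31.6 CPM in LEC and 15.8 to 19.96 in MEC against 4.46 to 9.05 and 4.24 to 8.10 in CA1 and CA3 (1.55, SE 0.11, adjusted p = 4.50e-14). Cdh20 and Cdh22 were higher by 0.93 and 1.43, and differed between the entorhinal regions as described below. The endothelial cadherin Cdh5 was higher by 0.94 (adjusted p = 9.76e-07). Endothelial markers summed to 71.2 to 170.2 CPM in CA1, 55.4 to 88.4 in CA3, 60.7 to 121 in LEC and 71.9 to 137 in MEC, and their part in the difference of Cdh5 was not tested.

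Among the type II cadherins lower in entorhinal cortex, Cdh24 had the largest difference. It was at 10.4, 22.9 and 34.6 CPM in CA3 and 5.64, 9.98 and 12.3 in CA1, against 1.96 to 4.02 in LEC and 2.19 to 3.73 in MEC (log2 difference -2.29, SE 0.12, adjusted p = 2.39e-17). No entorhinal library reached the lowest hippocampal one. Cdh11, known in hippocampus and forebrain as well as in bone, was at 79.1 to 124 CPM in CA1 and 99.5 to 152 in CA3 against 49.1 to 70.2 in LEC and 70.4 to 100.3 in MEC (-0.78, SE 0.059, adjusted p = 4.10e-13). The MEC range overlapped both hippocampal ranges.

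Cdh9, which takes part in the synapses that dentate granule cells form on CA3 neurons, was lower in entorhinal cortex (-0.67, SE 0.14, adjusted p = 0.000217), with 14.2, 19.1 and 33.3 CPM in MEC, 20.6, 32.03 and 46.8 in LEC and 41.2, 51.9 and 81.5 in CA3. In CA1 it spread from 8.14 to 65.4 CPM. The library with the lowest value, CA1 context 2, also had the lowest summed dentate granule markers of CA1 (159.1 CPM), and that with the highest, CA1 home cage 3, the highest (748 CPM). CA1 context 2 was lowest of CA1 in CA3 pyramidal markers as well (43.6 CPM). Those markers were at 207 CPM in CA1 home cage 3 and highest in CA1 fear 2 (281 CPM). The part of either list in the level of Cdh9 was not tested. Cdh19 was lower by a log2 difference of -0.38, SE 0.10, adjusted p = 0.00166, with 9.16 to 20.9 CPM in CA3 and 5.69 to 12.6 in LEC. Cdh19 is known from glia of the oligodendrocyte and Schwann cell lineages, and the oligodendrocyte markers given above were higher in all hippocampal libraries than in any entorhinal library. Their part in that difference was not tested. Cdh8 was also lower (-0.19, adjusted p = 0.0168), a call kept in 6 of 10 fits that left out replicates, and Cdh6, Cdh10 and Cdh12 gave no call.

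Of the other cadherins, Cdh13, T-cadherin, which is held to the membrane by a lipid anchor and lacks a cytoplasmic tail, was at 122, 165 and 213 CPM in LEC and 83.99, 107 and 126 in MEC. It was at 20.7, 37.5 and 60.9 CPM in CA1 and 31.4, 42.3 and 52.99 in CA3, below every entorhinal library (log2 difference 1.69, SE 0.084, adjusted p = 1.82e-17). Cdh23 and Pcdh15 are known together as the tip link of inner ear hair cells. Pcdh15 was at 19.7 to 34.9 CPM in LEC and 22.1 to 40.9 in MEC against 6.84 to 9.71 in CA1 and 5.67 to 10.5 in CA3, with no overlap (1.72, SE 0.078, adjusted p = 1.57e-18). Cdh23 was also higher in entorhinal cortex (1.00, SE 0.19, adjusted p = 3.86e-05), at much lower levels of 0.493 to 2.503 CPM in LEC and 2.59 to 6.03 in MEC.

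Among the protocadherins, 6 of 12 were higher and 2 lower in entorhinal cortex. The largest difference of any member with a mean of at least 2 CPM, apart from Cdh1, was that of Pcdh20, at 145, 165 and 249 CPM in CA1 and 151, 224 and 318 in CA3 against 23.6, 39.01 and 60.7 in LEC and 20.5, 21.8 and 28.7 in MEC (log2 difference -2.75, SE 0.10, adjusted p = 1.17e-19). Hippocampal and entorhinal libraries did not overlap. Of the delta-1 type, Pcdh7 (1.38), Pcdh11x (1.43) and Pcdh9 (0.56) were higher in entorhinal cortex, while Pcdh1 was lower (-0.59, SE 0.12, adjusted p = 7.33e-05), with 183 to 466 CPM in CA3 and 106 to 247 in MEC. Of the delta-2 type, Pcdh18 (1.503) and Pcdh10 (0.71) were higher, and Pcdh8, Pcdh17 and Pcdh19 gave no call. The exons of Pcdh7 overlap an annotated transcript on the opposite strand over 21.1% of their length, and the strand setting of the counting is not given in the sources used here.

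**Figure D3:**
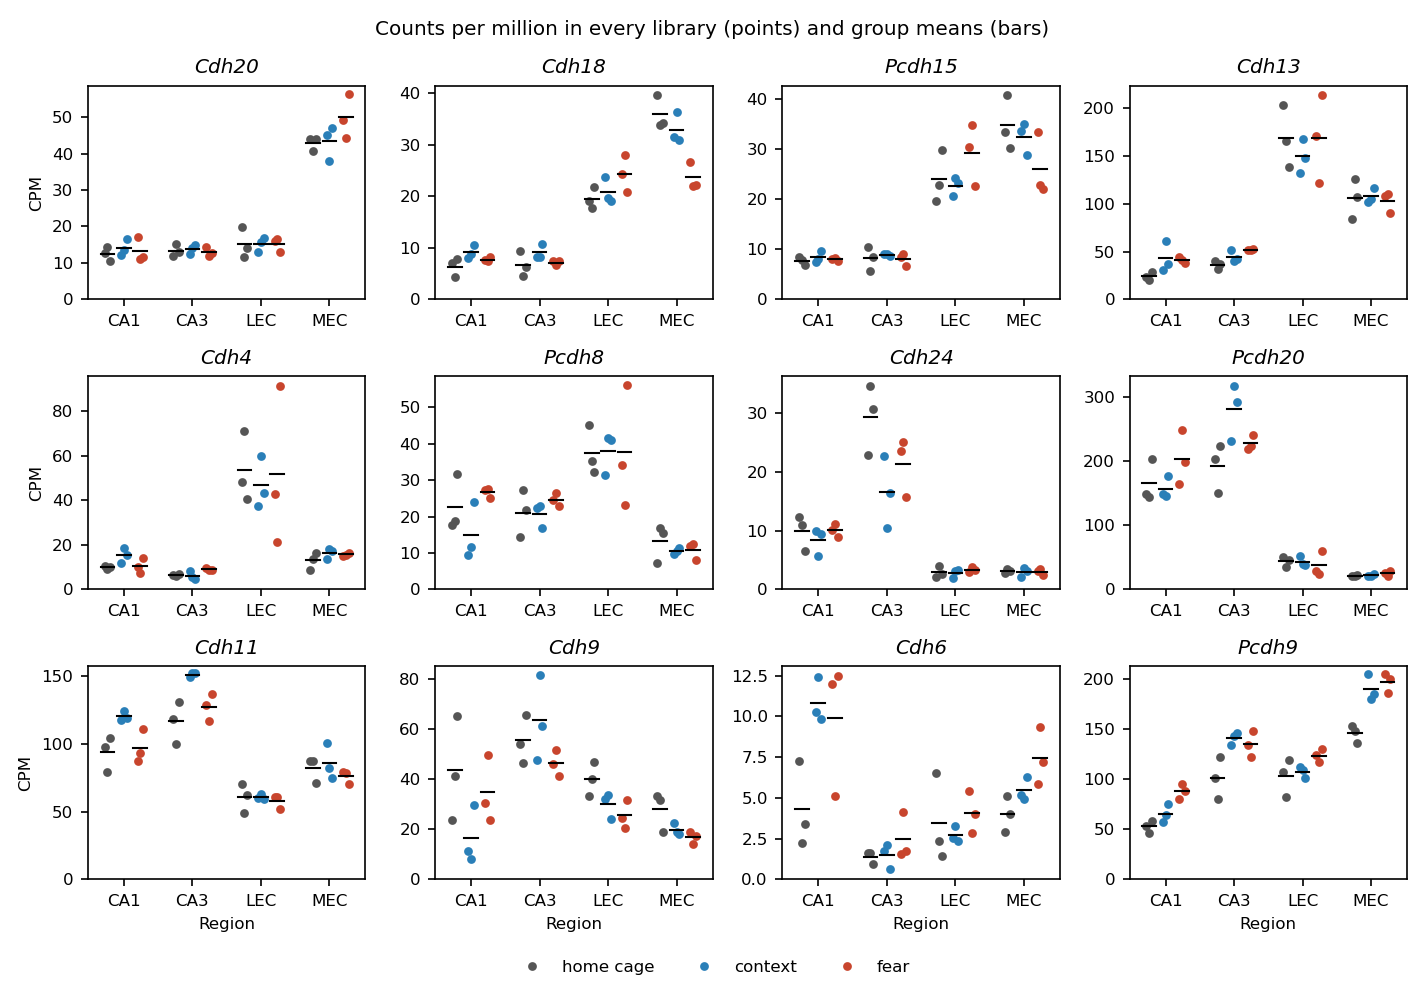
CPM of 12 members (linear axes from 0), with 1 point for each library, coloured by condition, and a bar at the mean of each group of 3. Cdh20 is high in MEC alone, Cdh4 and Pcdh8 are highest in LEC, and Cdh24 and Pcdh20 are high in CA1 and CA3, while the conditions overlap in most panels.

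The 2 entorhinal regions also differed from each other. Between MEC and LEC, 16 of 33 members were called, 7 higher and 9 lower in MEC, against 17.4% of all genes (8.8% higher and 8.59% lower). With only the 12 home cage libraries 4 of the 16 members were called, while 1.08% of all genes were. Cdh20, Cdh4, Pcdh8 and Pcdh20 kept their call under every alternative run.

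Cdh20, a type II cadherin, had the largest difference toward MEC. Its values were 37.9, 44.2 and 56.2 CPM in MEC, 11.7, 15.8 and 19.7 in LEC, 10.6, 12.7 and 17.1 in CA1 and 11.96, 12.9 and 15.2 in CA3. The lowest MEC library was above the highest of the 27 others (MEC minus LEC log2 difference 1.55, SE 0.10, adjusted p = 9.04e-13). CA1, CA3 and LEC overlapped, and CA3 and CA1 did not differ by the test (0.08, adjusted p = 0.598). Of the remaining genes higher in MEC, Cdh23 had a difference of 1.20, Pcdh9 of 0.64, Cdh12 of 0.59, Cdh18 of 0.47, Cdh11 of 0.42 and Cdh8 of 0.29. Cdh20, Cdh23, Pcdh9 and Cdh11 did so without overlap of the MEC and LEC libraries, against 1.81% of all genes.

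In the other direction, Cdh4 had a log2 difference of -1.79, SE 0.19, adjusted p = 6.99e-08. Pcdh8, also known as arcadlin, whose synthesis was described as induced by neuronal activity, was at 23.2, 35.1 and 56.1 CPM in LEC and 7.33, 11.4 and 16.9 in MEC, and at 9.51 to 31.6 in CA1 and 14.3 to 27.2 in CA3, ranges that overlapped those of both. Every MEC library was below every LEC library (log2 difference -1.75, SE 0.18, adjusted p = 4.28e-08), as they were for Cdh4 and Pcdh19, against 1.37% of all genes. Of the 5 delta-2 protocadherins, 3 were lower in MEC and 0 higher, the others being Pcdh18 (-0.77) and Pcdh19 (-0.72), a gene of the X chromosome linked to epilepsy. Pcdh20 (-0.89), Cdh13 (-0.65), Cdh9 (-0.60), Cdh22 (-1.11) and Cdh15 (-1.05) were lower as well. Cdh22 and Cdh15 lost their call without fear replicate 3 of every region, and Cdh9 and Cdh8 were each kept in 3 of 10 such fits.

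Between the hippocampal fields 16 of 33 members were called, 13 higher and 3 lower in CA3, against 31.0% of all genes (16.4% higher and 14.6% lower). For 0 members did all CA3 libraries lie beyond all CA1 libraries, against 3.17% of all genes (1.86% higher and 1.31% lower). Cdh6 overlapped through CA3 fear replicate 2 alone. With home cage libraries alone 3 members were called and 3.74% of all genes. Cdh24 (1.27, SE 0.15, adjusted p = 9.18e-08) and Pcdh9 (0.96, SE 0.085, adjusted p = 2.39e-10) were called in every alternative. Pcdh9 was at 46.9, 64.7 and 95.4 CPM in CA1 and 80.1, 134 and 148 in CA3.

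Higher in CA3 were also Cdh9 (0.99), Pcdh7 (0.82), Cdh2 (0.75) and Cdh19 (0.50), and, by smaller differences, Pcdh20, Pcdh11x, Cdh12, Cdh11, Cdh13, Cdh8 and Pcdh10. The delta-1 type had 3 of 4 members higher, with Pcdh1 not called (0.35, adjusted p = 0.102). Lower in CA3 were 3 cadherins. Cdh6, K-cadherin, was at 2.23, 9.84 and 12.5 CPM in CA1 and 0.665, 1.62 and 4.14 in CA3 (log2 difference -2.11, SE 0.28, adjusted p = 4.87e-07). The ranges overlapped through CA3 fear replicate 2 alone, at 4.14 CPM, as the other 8 CA3 libraries held at most 2.12 CPM. Cdh4 (-0.67, adjusted p = 0.00925) and Cdh22 (-0.88, adjusted p = 0.0470) followed. The call of Cdh22 was lost with the replicate block and kept in 4 of 10 fits that left out replicates.

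Neighbouring members in the genome had the same regional direction in some places and opposite directions in others. On chromosome 8, Cdh3 (106510891 to 106557297) and Cdh1 (106603351 to 106670246) were both higher in entorhinal cortex, and Cdh8 and Cdh11 both lower. Cdh5 (104101625 to 104144511), which lies between these pairs, was higher. On chromosome 3, Pcdh10 and Pcdh18 were both higher. On chromosome 1 (GRCm38), Cdh20 (104768529 to 104995481), Cdh7 (109982431 to 110140157) and Cdh19 (110888326 to 110977584) had entorhinal minus hippocampal differences of 0.93, 1.55 and -0.38. On chromosome 14, Pcdh17 (84443563 to 84539002), Pcdh20 (88464743 to 88471396) and Pcdh9 (93013410 to 93890679) had 0.00, -2.75 and 0.56. On chromosome 15, Cdh6, Cdh9, Cdh10, Cdh12 and Cdh18 follow one another, with differences of 0.19, -0.67, 0.14, 0.04 and 1.70. On chromosomes 1, 8, 14 and 15, members with opposite called directions lie among those named.

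The comparisons of conditions asked which members differed 90 minutes after context exposure or foot shock. Among the 12 comparisons within regions, members were called in 2: fear against home cage in MEC, and context against home cage in CA3. In MEC, 7 of 30 members tested were called, 5 higher and 2 lower after fear conditioning, against 9.56% of all genes (5.68% higher and 3.88% lower). Of 15 rapid activity-regulated genes such as Fos and Arc, 9 rose and 0 fell in the same comparison.

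Of the 4 delta-1 protocadherins in MEC, 3 rose, while 0 of the 5 delta-2 protocadherins were called. Pcdh7 was at 33.6, 46.8 and 55.3 CPM in home cage, 59.1, 59.7 and 67.6 in context and 71.01, 77.4 and 83.7 in fear libraries. The 3 fear libraries were above the 3 home cage libraries (log2 difference 0.81, SE 0.14, adjusted p = 0.00503). Pcdh9 was at 154, 149 and 136 CPM in home cage and 205, 186 and 200.3 in fear libraries, again without overlap (0.47, SE 0.093, adjusted p = 0.00933). Pcdh1, whose RNA is among the most abundant of the family per kilobase, was at 106, 163 and 203 CPM in home cage and 247, 231 and 247 in fear libraries (0.66, SE 0.17, adjusted p = 0.0335). Pcdh11x, the fourth, did not pass the test (0.24, adjusted p = 0.281).

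Among the cadherins, Cdh6 rose in MEC from 2.88, 5.10 and 4.03 CPM in home cage to 5.84, 9.33 and 7.21 in fear libraries (0.94, SE 0.23, adjusted p = 0.0222). Cdh8 had 85.6, 85.5 and 72.8 CPM in home cage and 98.4, 109.7 and 100.5 in fear libraries (0.38, SE 0.11, adjusted p = 0.0433). Both separated the groups completely. Complete separation held for 8 of the 30 members in all (7 higher and 1 lower), and the share over all genes was not determined. Cdh18 fell from 39.6, 33.8 and 34.3 to 26.6, 22.1 and 22.3 CPM, with no overlap (-0.56, SE 0.12, adjusted p = 0.0142), and Cdh9 fell from 33.3, 31.8 and 18.9 to 19.1, 14.2 and 17.3 CPM, with overlap (-0.69, SE 0.20, adjusted p = 0.0439). Pcdh7 and Pcdh9 kept their call in all 9 fits that left out a library. The count was 2 of 30 without fear replicate 2 or 3 of MEC, and it was 3, 4 and 11 when home cage replicate 1, 2 or 3 was left out. In a single fit of all 36 libraries 0 of the 30 were called, with adjusted p of 0.139 for Pcdh7 and 0.0836 for Pcdh9. Summed oligodendrocyte markers in MEC were 2363, 1681 and 1656 CPM in home cage and 2420, 3370 and 3143 in fear libraries, all higher after fear. The same separation held for interneuron markers (657, 733 and 710.0 against 834, 834 and 896), oligodendrocyte precursor markers (199, 205 and 230.3 against 247, 248 and 239.7), endothelial markers (71.9, 75.3 and 81.1 against 108, 92.9 and 137), thalamic markers (166, 163 and 162 against 212, 212 and 220.1) and CA3 pyramidal markers (86.3, 100.2 and 108 against 118, 146 and 127). The part of these markers in the result was not tested.

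In CA3, 10 of 30 members were called between context and home cage, 9 higher and 1 lower, against 13.9% of all genes (5.77% higher and 8.13% lower). The members' median log2 difference was 0.42, and that of all genes -0.01. Adjusted p of these 10 lay between 0.0450 and 0.0486. Pcdh19 was at 64.4, 54.6 and 80.6 CPM in home cage and 88.8, 122 and 107 in context libraries (log2 difference 0.79). Pcdh11x was at 6.53, 5.16 and 6.96 CPM in home cage and at least 10.01 CPM in each context library (0.89), and Pcdh17, a delta-2 protocadherin of presynaptic terminals, at 56.5, 43.6 and 67.1 and 76.7, 90.1 and 87.6 (0.72). Each of the 3 separated the groups without overlap. Such separation held for 13 of the 30 members in all (11 higher and 2 lower), and the share over all genes was not determined.

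Cdh2 had 94.8, 65.3 and 129 CPM in CA3 home cage and 151, 151 and 146 in context libraries (0.75), and Pcdh20 had 204, 151 and 224 and 232, 318 and 293 (0.66). Cdh19 (0.66), Cdh8 (0.62), Pcdh9 (0.60) and Cdh11 (0.50) rose by similar or smaller differences. For Cdh8 the values were 90.3, 72.5 and 96.6 and 102, 142 and 121 CPM, for Cdh11 119, 99.5 and 131 and 149, 152 and 152, for Cdh19 10.02, 12.9 and 14.3 and 15.8, 17.5 and 20.9, and for Pcdh9 102, 80.1 and 123 and 134, 144 and 146. Home cage replicate 2 was the lowest of the 6 libraries for each gene that rose except Cdh19. Cdh23 was the member that fell, from 1.45, 3.23 and 1.66 to 0.827, 0.326 and 0.352 CPM (-1.93).

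The CA3 calls were lost in most fits with 1 library left out, and most were lost with offsets for GC content and length. The reasons were not tested. Without any 1 of context 2, context 3, fear 1, fear 2, fear 3, home cage 1 or home cage 2, 0 of the 30 were called, and without context 1 or home cage 3 it was 14 and 12. Without both context 2 and home cage 2 the count was 0, and the log2 difference of Pcdh19 was 0.53. The members tested are longer than most genes, with a median of 6783 bp of exon against 3950 bp, and of lower GC content, 45.8% against 49.6%. With offsets for GC content and length 2 were called, Pcdh19 (log2 difference 0.58, adjusted p = 0.0490) and Pcdh8 (0.99, adjusted p = 0.0471, against 0.10 without offsets). Over all genes, the share called was 2.81% with the offsets and 13.9% without. In MEC the same offsets gave 10 calls, against 12.4% of all genes, and 6 of the 7 were kept, all but Cdh9, with the difference of Pcdh1 down to 0.27. Summed oligodendrocyte markers in CA3 were 8714, 13260 and 6959 CPM in home cage and 8090, 5819 and 8336 in context libraries, highest in home cage 2, with overlap. Without overlap, context libraries were lower in astrocyte markers (2584, 2749 and 2052 in home cage against 1813, 1888 and 1674), microglial markers (371, 446.5 and 291 against 285, 267 and 242) and CA1 pyramidal markers (184, 383 and 155 against 154.1, 154 and 88.2). They were higher in interneuron markers (534, 499.5 and 519 against 587, 670.2 and 571) and cortical layer markers (157, 165 and 169.9 against 180.2, 197.5 and 185). The part of these markers in the result was not tested.

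**Figure D4:**
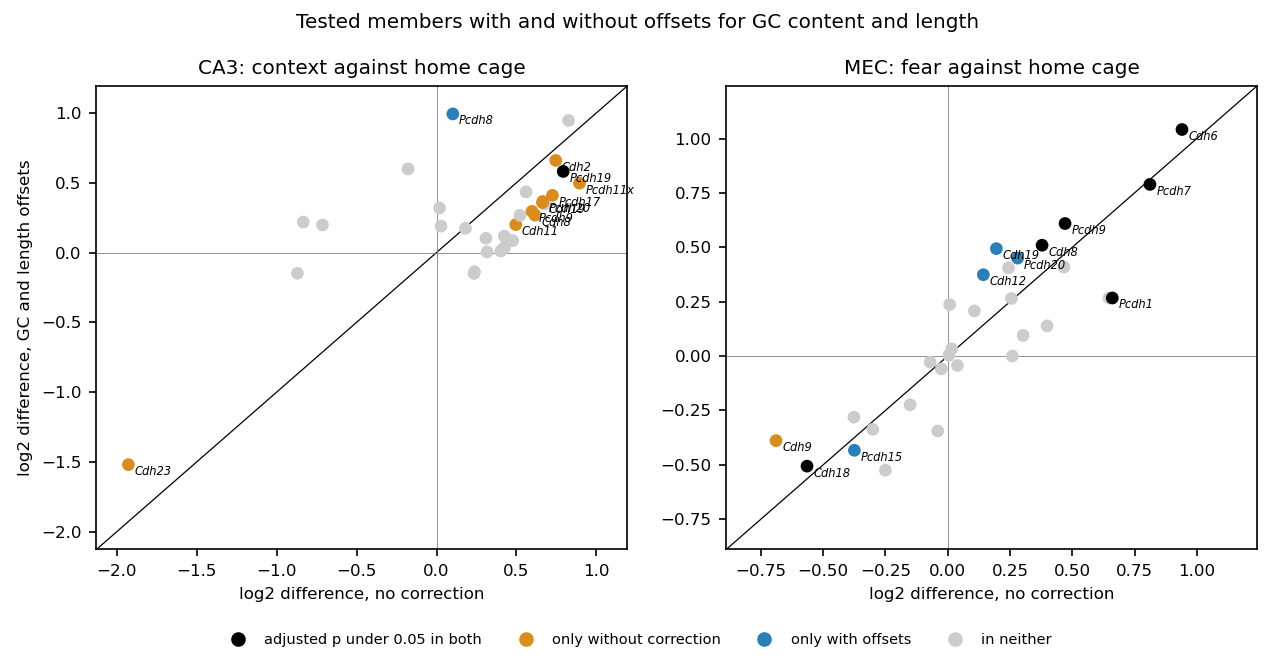
Log2 differences of the 30 tested members without (x axis) and with (y axis) offsets for GC content and length, for context against home cage in CA3 and fear against home cage in MEC. The line marks equal values, and colours show in which fit the adjusted p was under 0.05: in CA3 most called members move toward 0 with the offsets, and in MEC 6 of the 7 stay called.

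In the remaining comparisons within regions edgeR called 0 of 30 members at an adjusted p under 0.05. In CA1, edgeR called 0.0% of all genes after adjustment. Members with an unadjusted p under 0.05 numbered 12 (fear against home cage), 12 (context against home cage) and 6 (fear against context). DESeq2 called 6, 4 and 0. For counts at an unadjusted p, by DESeq2 or with a library left out, here and below, the share of all genes is not given. Such counts do not tell a change of the members from a change over all genes. The replicate numbers of CA1 home cage and fear libraries deviated together. Those of CA1 context and fear libraries did not (correlations of deviations -0.07, -0.136 and -0.213), and the replicate block spans all CA1 libraries. With this block 3 members were called for fear: Pcdh1 (log2 difference 0.97, adjusted p = 0.0342), Pcdh9 (0.81, 0.0330) and Cdh2 (0.69, 0.0341), against 4.42% of all genes. Pcdh9 was at 53.5, 46.9 and 58.6 CPM in CA1 home cage and 80.9, 95.4 and 88.5 in fear libraries, without overlap. Leaving out CA1 home cage 1 or home cage 3 also gave 3 calls for fear, and leaving out home cage 1 gave 1 for context.

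In CA3, fear against home cage (0.00619% of all genes called) had 8 members at an unadjusted p under 0.05 and 4 with DESeq2, and fear against context (0.0%) had 7 and 2. Without CA3 home cage 3 the first comparison gave 4 calls, and without context 1 the second gave 5. In LEC (0.0% in each comparison), 1, 0 and 0 members had an unadjusted p under 0.05 for fear against home cage, context against home cage and fear against context, and DESeq2 called 0 in each. In MEC, edgeR called 0.57% of all genes for context against home cage (0.497% higher and 0.0736% lower). There, 10 members were under an unadjusted p of 0.05, and DESeq2 called 3. Fear against context (0.0% of all genes called by edgeR) had 6 and 0. Without MEC home cage 3 there were 3 calls for context.

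The replicate numbers of MEC home cage and context libraries also deviated together. Those of MEC home cage and fear libraries did not for every number (correlations of deviations 0.076, -0.064 and 0.225). With the replicate block 4 members rose in context: Pcdh9 (log2 difference 0.42, adjusted p = 0.00957), Pcdh7 (0.51, 0.0111), Pcdh11x (0.48, 0.0473) and Cdh12 (0.44, 0.0264), against 4.09% of all genes. Of these 4, 3 are delta-1 protocadherins. Pcdh9 was at 205, 180.4 and 185 CPM in the context libraries, above each home cage library given above.

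Averaged over the 4 regions, 11 of 33 members rose and 0 fell after fear conditioning, against 24.1% of all genes called (14.2% higher and 9.94% lower). After context exposure 11 rose and 1 fell, against 22.1% (13.5% higher and 8.58% lower). The median member differences were 0.21 and 0.24, against -0.0034 and -0.03 over all genes. These 2 averages share the home cage libraries, so their likeness is not independent, and each is given for itself.

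Pcdh9 had the smallest adjusted p for fear (0.53, SE 0.073, adjusted p = 7.40e-06), and 0.38, SE 0.073, adjusted p = 0.000536 for context. In each of the 4 regions its mean was higher in fear than in home cage libraries. Cdh2 differed by 0.45, SE 0.089, adjusted p = 0.000460 for fear and 0.45, SE 0.089, adjusted p = 0.000785 for context. Cdh8 differed by 0.37, adjusted p = 0.00104 for fear and 0.34, adjusted p = 0.00323 for context. Pcdh1 rose for fear (0.63, SE 0.14, adjusted p = 0.00156) and did not pass for context (0.26, adjusted p = 0.198), and the difference between the responses averaged over regions was not tested. Cdh2, Cdh8, Pcdh1 and Pcdh9 kept their fear call, and Cdh2 and Pcdh9 their context call, under every alternative run.

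Cdh6 rose for fear (0.85, SE 0.23, adjusted p = 0.00704), a call lost in 1 alternative, without CA3 fear replicate 2 and with the GC and length offsets. Cdh13 (0.39), Pcdh7 (0.47), Pcdh17 (0.41), Pcdh19 (0.35) and Cdh12 (0.35) were the further members that rose. With the GC and length offsets Cdh13, Pcdh7, Pcdh17 and Pcdh19 lost this call, and Cdh12 kept it in 8 of 18 alternatives. The value of Cdh3 for fear (2.81, adjusted p = 0.00857) rested on the CA3 fear replicate 2 library, since without it the difference was 1.67 with an adjusted p of 0.120. For context, Cdh12 (0.45), Pcdh19 (0.44), Pcdh17 (0.34), Cdh13 (0.32), Cdh18 (0.30), Cdh11 (0.28), Cdh10 (0.25) and Pcdh10 (0.24) also rose. Of these, Cdh11, Cdh13, Pcdh10 and Pcdh17 lost their context call with the GC and length offsets. Cdh23 fell (-0.65, adjusted p = 0.0460), a call lost with the replicate block and kept in 1 of 10 fits that left out replicates.

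The counts moved with single replicates. For context, the count was 4 without home cage 2 of every region and 3 without context 2, and for fear it was 7 without home cage 2, fear 1 or fear 3. Without the context 2 and home cage 2 libraries of CA1 and CA3, an alternative added after seeing the data, 2 members were called for context (Cdh2 and Pcdh9) and 7 for fear. The differences between the entorhinal and the hippocampal response gave 0 calls of 33 with edgeR for fear and for context (0.0% of all genes), with 7 members each at an unadjusted p under 0.05 and 0 with DESeq2. Median differences of the responses were -0.26 and -0.27, and without context 1 of every region 2 members were called for context.

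**Figure D5:**
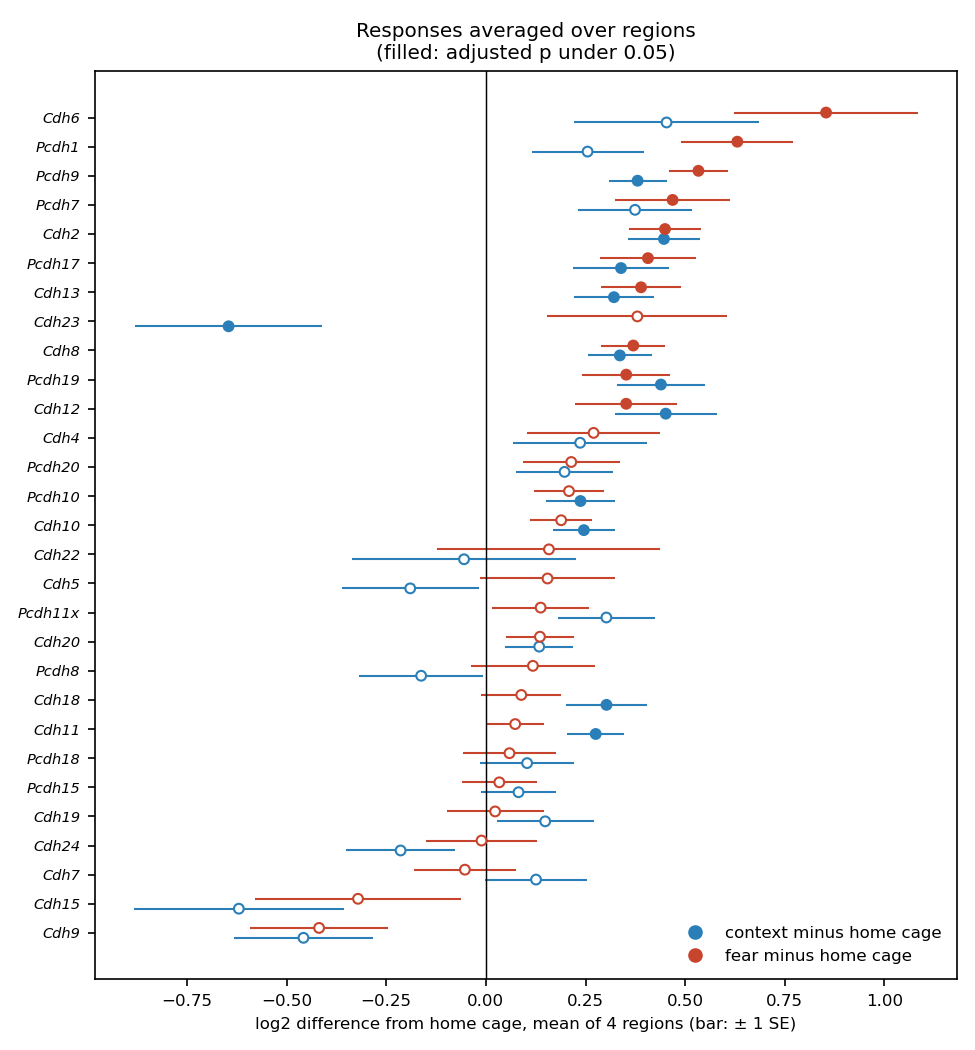
Log2 difference from home cage averaged over the 4 regions, for context (blue) and fear (red), with bars of 1 SE and filled points for an adjusted p under 0.05, for 29 of the 33 tested members (Cdh1, Cdh3, Cdh26 and Pcdh12, the least abundant or resting on 1 library, are not drawn). Most filled points lie between 0.24 and 0.63, Cdh6 for fear lies higher, and Cdh23 for context is the only filled point below 0.

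Pcdh8, the member known as activity-regulated, was called, without offsets for GC content and length, in none of the 12 comparisons within regions or the averages. In CA1 it was at 17.7, 18.9 and 31.6 CPM in home cage, 9.51, 11.5 and 23.9 in context and 27.3, 27.5 and 25.1 in fear libraries. Each fear library was above each context library, with a log2 difference of 0.85, SE 0.31, adjusted p = 0.846. In MEC its values were 7.33, 16.9 and 15.5, 9.69, 10.4 and 11.4 and 11.9, 12.4 and 8.17 CPM, with a difference of -0.25, adjusted p = 0.534 between fear and home cage. In LEC, fear and home cage differed by -0.01, adjusted p = 0.999. The exons of Pcdh8 overlap an antisense transcript over 9.6% of their length.

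The cytoplasmic partners of these proteins differed by region as well. Of 19 catenins and other partners of classical cadherins, 8 were higher and 7 lower in entorhinal cortex, where 50.9% of all genes were called (25.5% higher and 25.4% lower), with Lin7a (1.06), a scaffold protein, Ctnnd2 (0.54), delta-catenin of neurons, and Afdn (0.36), afadin, among those higher. Fer (-0.53), a tyrosine kinase that binds p120-catenin, was lower. Of 13 partners of delta protocadherins, 1 was higher and 7 lower, a total near that share of all genes, including the WAVE complex genes Cyfip1 (-0.77), Abi1 (-0.71) and Nckap1 (-0.65) and the phosphatase 1 subunit Ppp1cc (-0.70). The median differences of the 2 lists were -0.0019 and -0.15, against -0.02 over all genes. Between MEC and LEC, Ctnnb1, beta-catenin, was lower in MEC (-0.47, SE 0.058, adjusted p = 3.58e-07), with 2 of the 19 higher and 3 lower, against 17.4% of all genes called.

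For context in CA3, 5 of the 13 delta-protocadherin partners rose and 0 fell, among them Nckap1 (0.69) and Abi2 (0.67). Of all genes, 13.9% were called there (5.77% higher and 8.13% lower). Of the 19 catenin-list genes, 1 rose, Magi2 (0.52), and 3 fell, Ptpn1 (-0.84), Lin7b (-1.60) and Plekha7 (-1.50). For fear in MEC, 1 of the 13, Cyfip2 (0.29, adjusted p = 0.0471), and 1 of the 19 catenin-list genes, Jup, plakoglobin (0.60, adjusted p = 0.0493), rose. There 9.56% of all genes were called (5.68% higher and 3.88% lower). Averaged over regions, 4 of the 13 rose for fear and 7 for context, with Cyfip2 at 0.48 and 0.41. In the catenin list 4 of 19 rose for fear, among them Ctnnd1, p120-catenin (0.29, SE 0.048, adjusted p = 8.04e-05), and 7 rose and 1 fell for context. Of all genes, 24.1% were called for fear (14.2% higher and 9.94% lower) and 22.1% for context (13.5% higher and 8.58% lower). The lists are short, and their counts were not tested against these shares. Among the proteases that cut cadherins, Ncstn, nicastrin, rose for fear (0.28, SE 0.066, adjusted p = 0.00257). For context, Adam10, which sheds the extracellular part of N-cadherin, rose (0.31, SE 0.075, adjusted p = 0.00353), and Psenen fell (-0.27).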

How the data were processed

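The deposited table holds gene counts of 36 polyA RNA-seq libraries. Per the submitters' processing notes, the authors used Trimmomatic 0.33, STAR 2.7.10b and HTSeq 2.0.1 with mm10 (their settings, the annotation release and the strand mode: not given in the sources used here). Symbols, lengths and positions came from GENCODE M21 (GRCm38), which matched 35449 (95.0%) of the gene identifiers, and promoter sequences from RefSeq. The members and gene lists were chosen with earlier results of these data known.

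The main test was edgeR 4.0.16's robust quasi-likelihood test in R 4.3.3, with TMM scaling, filterByExpr by group and Benjamini-Hochberg adjustment over all genes tested. Conditions were compared within each region (9 libraries, 6 residual degrees of freedom), and regions, averages over regions and differences of responses in a fit of 36 libraries (24 degrees of freedom). The procedure was also run on simulated counts, with changes larger than most differences between conditions given here and less spread than most of the fits had. Its outcome is not reported here and is not used as support for the calls. Named with values per library were members called within a region between conditions (those called only in averages over regions by their difference), the largest called differences in each direction between regions, and Pcdh8, with at most 4 called genes of smallest p from each partner list. Part of the protease list is not reported here. Alternatives were RLE scaling, no filter, a replicate block, GC and length offsets, DESeq2 1.42.0, home cage libraries only and libraries left out. Whether replicate numbers pair the samples was checked from the correlation of their deviations: it was above 0.1 for every number in 2 of 12 pairs of conditions, CA1 home cage with fear (0.248, 0.281 and 0.141) and MEC home cage with context (0.446, 0.265 and 0.589), and in 2 of 18 pairs of regions.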

Additional observations from a re-analysis of the deposited data

How the results depend on the processing

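No alternative reversed the direction of a called member. Members not called did reverse with the GC and length offsets for context in CA3: Pcdh1 (-0.18 to 0.60), Cdh24 (-0.71 to 0.20), Cdh22 (-0.83 to 0.22), Cdh6 (0.23 to -0.15) and Pcdh15 (0.24 to -0.14). For fear in MEC, Cdh2 (0.04 to -0.04) and Cdh22 (0.26 to -0.0001) did so. Where no share is printed beside a count of members in this report, the share of all genes in that fit is not given. Such a count does not tell a change of the members from a change over all genes. Counts of members called moved as follows. For fear against home cage in CA1, where the main count was 0, they were 2 without a filter, 3 with the replicate block, 1 with the block and the GC and length offsets, 6 with DESeq2 and 3 in a single fit of all 36 libraries. For context in CA1, DESeq2 and the single fit each called 4. For fear against home cage in CA3 the block with offsets called 6, DESeq2 4 and the single fit 6, and for fear against context DESeq2 called 2. For context in CA3, 10 became 2 with offsets and 0 without context 2 and home cage 2. For fear in MEC, 7 became 12 with the block and offsets and 0 in the single fit. For context in MEC, 0 became 2 without a filter, 4 with the block, 3 with offsets, 4 with both and 3 with DESeq2, and for fear against context the block called 1, Cdh18. With home cage libraries only, MEC minus LEC had 4 and CA3 minus CA1 had 3 calls. Averaged over regions, fear had 7 when context 2 and home cage 2 were left out in the hippocampal regions and 6 without CA3 fear replicate 2 with offsets, and context had 2 in the former. The replicate block moved no other count of members by over 1.5 times. The causes were not tested.

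Leaving out 1 replicate at a time gave 0 to 3 calls for fear in CA1, 0 to 1 for context and 0 for fear against context. In CA3 the ranges were 0 to 4, 0 to 14 and 0 to 5, in LEC 0 throughout, and in MEC 2 to 11, 0 to 3 and 0. The averages ranged from 7 to 13 for fear and 3 to 13 for context, the differences of responses 0 for fear and 0 to 2 for context, and the regional contrasts 23 to 25 (entorhinal minus hippocampal), 12 to 17 (MEC minus LEC) and 13 to 17 (CA3 minus CA1). Detection limits for members of low counts were not tested.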
